A study of Mus musculus with 6 samples.

Results

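The genes of NRF2 signalling, glutathione and cellular redox balance were examined in reprogramming mouse fibroblasts in which Adar, the gene of the RNA-editing enzyme ADAR1, was targeted. They are 41 listed symbols, each matched to the row of the deposited tables that holds it (the row of highest mean where there were several), out of 23406 named genes. All 41 were found and all 41 passed the filter on low values. They fall into 8 classes: NRF2 regulators (2 genes), glutathione synthesis, reduction and peroxidases (9), glutathione transferases (6), thioredoxin and peroxiredoxin (9), iron and heme (4), NADPH supply (5), superoxide and hydrogen peroxide (4), and quinone reduction and conjugate export (2).

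Total RNA was sequenced after ribosomal RNA removal from mouse embryonic fibroblasts given OSKM, the factors Oct4, Sox2, Klf4 and Myc that turn fibroblasts into pluripotent cells, at day 7. KO cells had both Adar alleles floxed and were treated with 4OHT (2 libraries), and WT cells had the same floxed alleles and were given vehicle (2 libraries). In MUT cells 1 Adar allele was floxed and the other carried E861A, a change known to abolish editing, and the cells were treated with 4OHT (1 library). HET cells had the alleles of MUT and were given vehicle (1 library). 4OHT (4-hydroxytamoxifen) is widely used to switch on tamoxifen-dependent Cre, an enzyme that cuts out floxed sequence, but the labels name neither the Cre line nor the deleted exons. No library combined 4OHT with intact Adar, so the effect of 4OHT and the effect of losing Adar cannot be told apart, and MUT loses an allele as well as editing.

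NRF2, encoded by Nfe2l2, is a transcription factor that KEAP1 holds in the cytoplasm and marks for degradation; when oxidants or electrophiles modify KEAP1, NRF2 accumulates in the nucleus, pairs with small MAF proteins and binds antioxidant response elements. Its known targets make glutathione, reduce thioredoxin, degrade heme, store iron and supply NADPH, the electron donor of both the glutathione and the thioredoxin systems. In fibroblasts these genes are expressed at rest and are raised by oxidative and electrophilic stress.

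The core of the antioxidant response element was looked for in the members' promoters, and the stretches that hold it are shown to let its letters be compared between members that rose and members that fell. The letters TGACNNNGC, or GCNNNGTCA on the opposite strand, were searched for in RefSeq windows of 300 bases (GRCm38.p6) that run from 250 bases before each transcription start to 50 bases after it. Of 41 members, 34 had a window; Hmox1, Gclc, Abcc1, Prdx6, Gsr, Gsta4 and Sod3 were not searched. The core was in 10 of 45 member windows (22.22%), in 1751 of 12397 windows of tested genes (14.12%) and in 4071 of all 32851 windows (12.39%). By the KO against WT result below, it was in 7 of 16 higher genes (43.75%), in 3 of 9 lower genes (33.33%) and in 0 of 9 genes that were not called. Some genes had several windows, the higher ones most often. By window, the core was in 7 of 26 windows of higher genes (26.92%) and in 3 of 10 of lower genes (30.0%). It was in 0 of 9 windows of genes that were not called. Counted by gene, it was in 10 of 34 members (29.41%) and in 1630 of 9683 tested genes (16.83%). The stretches below are written 5′ to 3′ on the strand of the gene, with the core in capitals. They belong to the member with the largest rise among those found to hold the core, in each of 5 classes, followed by the 3 members that fell in KO and also hold it.
Nfe2l2: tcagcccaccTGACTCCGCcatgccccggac
Gclm: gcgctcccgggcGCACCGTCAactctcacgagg
Mgst1: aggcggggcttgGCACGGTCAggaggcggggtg
Txnrd1: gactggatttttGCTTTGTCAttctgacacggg
Me1: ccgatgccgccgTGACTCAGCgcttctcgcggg
Prdx1: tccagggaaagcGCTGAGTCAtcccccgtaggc
Sod1: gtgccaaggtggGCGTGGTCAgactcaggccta
G6pdx: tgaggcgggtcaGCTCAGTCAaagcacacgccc
The Nfe2l2 stretch is at chr2:75704883-75704913 on the minus strand, and the core begins at position -240 from the start. The Gclm stretch is at chr3:122245411-122245443 (plus strand, core at -134) and that of Mgst1 is at chr6:138140459-138140491 (plus strand, core at -56). The Txnrd1 stretch, at chr10:82859102-82859134 on the plus strand with the core at -92, lies at 1 of the 3 annotated starts of that gene. The Me1 stretch is at chr9:86695900-86695932 on the minus strand, with the core at -6. Among the members that fell, the stretches are at chr4:116685454-116685486 for Prdx1 (plus strand, -133), chr16:90220694-90220726 for Sod1 (plus strand, -56) and chrX:74428917-74428949 for G6pdx (minus strand, -57). Read on the strand that begins with TGAC, the core of Prdx1, which fell, and that of Me1, which rose, are the same 9 letters, TGACTCAGC. The cores of Srxn1 and Pgd, which rose, lay just after their starts, at positions 29 and 4. A match is only a match of letters, and NRF2 binding was not measured.

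Values are FPKM, fragment numbers corrected for the length of the transcript and the size of the library, so levels can be set side by side between genes although the read totals are lost. Depth was estimated at 15600000 (MUT) to 21600000 (KO 1) fragments. The value steps that these estimates rest on were only weakly regular (score 0.147 in WT 2 to 0.361 in WT 1), so the depths and their order are rough. The libraries of each pair had a Pearson r of 0.995 across 12266 genes. Adar itself was listed at 34.2 and 31.3 FPKM in KO, 19.6 and 19.5 FPKM in WT, 33.0 FPKM in MUT and 17.0 FPKM in HET; the deleted exons are not known, so this level does not check the labels. Nothing in the labels says that the 2 replicates of a group were separate cultures, and the p-values therefore cover the variation among these libraries alone, which may be technical. Markers of other states moved with the groups: the summed level of 9 fibroblast genes was 2402 and 2408 FPKM in KO, 5212 and 4837 FPKM in WT, 3249 FPKM in MUT and 4668 FPKM in HET, and 7 of 9 fell. Vim and Thy1 were not called. Over all tested genes 28.2% were called lower in KO than in WT. Vim held most of the KO sum, at 1720 and 1842 FPKM in KO, against 1728 and 1737 FPKM in WT. All 8 pluripotency genes fell as well, with a summed level of 22.0 and 8.30 FPKM in KO, 608 and 486 FPKM in WT, 43.2 FPKM in MUT and 626 FPKM in HET. The part of these shifts in the results below was not tested, and in bulk RNA fewer cells of a type and less RNA per cell cannot be told apart.

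KO cells are compared with WT cells first, which sets 4OHT against vehicle in cells with both Adar alleles floxed. In KO cells the heme oxygenase and thioredoxin reductase transcripts rose most, and glutathione synthesis and ferritin transcripts rose by less than these. The superoxide dismutases, 3 glutathione transferases, Gsr, G6pdx, the peroxidase Gpx7 and the peroxiredoxins Prdx1, Prdx2 and Prdx4 fell. With limma on log2(FPKM + 1) and Benjamini-Hochberg adjustment over all 12266 tested genes, 32 of the 41 genes were called at an adjusted p under 0.05, against a background of 57.7% of all tested genes. Of these, 20 were higher (48.8%, background 29.5%) and 12 were lower (29.3%, background 28.2%). The share that fell was near its background. The median log2 difference was 0.22 over the 41 genes and 0.02 over all tested genes. The KO and WT libraries did not overlap for 35 of 41 genes, against 78.8% of all tested genes. Among the 35 are Gpx3, Prdx3 and Tkt, which were not called, so lack of overlap is common and does not mark a called gene. Of all 41 genes 7 were called and changed by 2-fold or more after adding 1 FPKM, against 14.1% of all tested genes. They were 4 upward (at least 2-fold higher in 4.68% of all tested genes) and 3 downward (at least 2-fold lower in 9.39%). Where a call is given below without 1 library of a pair, that lone library is assumed to vary like the other pair, which alone supplies the spread.

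**Figure D1:**
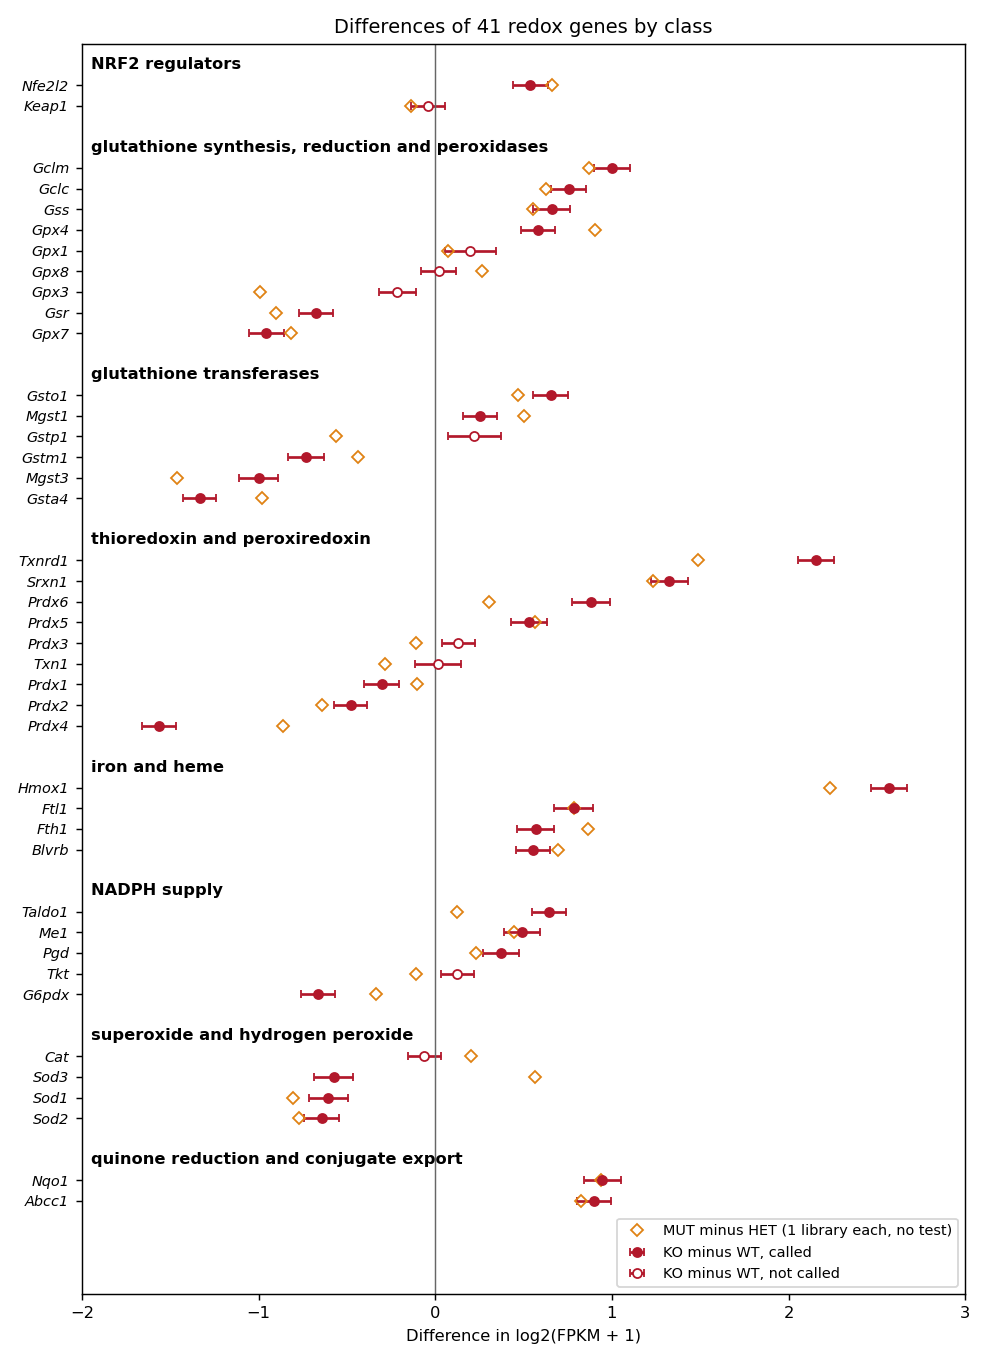
Difference in log2(FPKM + 1) (x axis) for each of the 41 genes, by class: circles are KO minus WT with the limma standard error, filled where called and open where not, and diamonds are MUT minus HET with 1 library each. Among the circles Hmox1 at 2.57 and Txnrd1 at 2.16 lie farthest to the right and Prdx4 at -1.56 lies farthest to the left.

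Of the NRF2 regulators, Nfe2l2 (ENSMUSG00000015839.6, GRCm38 chr2:75675513-75704641) rose and Keap1 (ENSMUSG00000003308.15, chr9:21229730-21239361) was not called. Nfe2l2 was at 61.0 and 62.9 FPKM in KO, against 40.1 and 44.6 FPKM in WT, and at 59.4 FPKM in MUT, against 37.2 FPKM in HET (KO minus WT log2 difference 0.54, SE 0.10, adjusted p = 0.000881). Both KO values lay above both WT values. Keap1, the adaptor that presents NRF2 for ubiquitination, was at 23.7 and 24.6 FPKM in KO, against 25.4 and 24.4 FPKM in WT, and at 24.3 FPKM in MUT, against 26.8 FPKM in HET (KO minus WT log2 difference -0.04, SE 0.10, adjusted p = 0.733), and its libraries overlapped.

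In the glutathione class 4 of 9 genes rose (44.4%, background 29.5%), 2 fell (22.2%, background 28.2%) and 3 were not called. The rising ones include all 3 that make glutathione. Gclm, the modifier subunit of glutamate-cysteine ligase, the rate-limiting enzyme of that synthesis (ENSMUSG00000028124.15, chr3:122245557-122270732), was at 58.7 and 65.9 FPKM in KO, against 29.3 and 31.9 FPKM in WT, and at 61.4 FPKM in MUT, against 33.1 FPKM in HET (KO minus WT log2 difference 1.002, SE 0.10, adjusted p = 1.59e-05). Gclc, its catalytic subunit (ENSMUSG00000032350.9, chr9:77754535-77794485), was at 39.9 and 45.0 FPKM in KO, against 24.3 and 25.1 FPKM in WT, and at 32.6 FPKM in MUT, against 20.7 FPKM in HET (KO minus WT log2 difference 0.76, SE 0.10, adjusted p = 0.000109). Gss, glutathione synthetase, which adds the last amino acid, was at 40.1 and 44.2 FPKM in KO, against 27.9 and 24.7 FPKM in WT, and at 26.6 FPKM in MUT, against 17.8 FPKM in HET (KO minus WT log2 difference 0.66, SE 0.11, adjusted p = 0.000359). KO libraries were above WT libraries for each of these 3 genes, without overlap. Gsr, glutathione reductase, which turns oxidised glutathione back to the reduced form, moved the other way, at 25.8 and 27.8 FPKM in KO, against 42.6 and 44.2 FPKM in WT, and at 26.4 FPKM in MUT, against 50.1 FPKM in HET (KO minus WT log2 difference -0.67, SE 0.10, adjusted p = 0.000173). The MUT library was also above the HET library for the 3 synthesis genes and below it for Gsr.

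The 5 glutathione peroxidases, which reduce peroxides with glutathione or related thiols, did not move together. Gpx4, a selenoprotein that reduces lipid peroxides in membranes, was at 364 and 355 FPKM in KO, against 233 and 247 FPKM in WT, and at 333 FPKM in MUT, against 178 FPKM in HET (KO minus WT log2 difference 0.58, SE 0.10, adjusted p = 0.000439). The row that holds Gpx4 spans 672333 bases and overlaps 47 other rows, far more than the gene itself (ENSMUSG00000075706.10, chr10:80047166-80056439), and what this does to its level was not tested. Gpx7, a peroxidase of the endoplasmic reticulum, was at 9.86 and 10.3 FPKM in KO, against 20.8 and 20.1 FPKM in WT, and at 13.1 FPKM in MUT, against 23.9 FPKM in HET (KO minus WT log2 difference -0.96, SE 0.10, adjusted p = 1.59e-05). KO libraries were above WT libraries for Gpx4 and below them for Gpx7. Gpx8, the other peroxidase of that compartment, was not called, at 94.0 and 106 FPKM in KO, against 100.3 and 96.8 FPKM in WT, and at 91.0 FPKM in MUT, against 75.6 FPKM in HET (KO minus WT log2 difference 0.02, SE 0.10, adjusted p = 0.883). Gpx1, the abundant cytosolic selenoprotein, was not called either, at 243 and 318 FPKM in KO, against 270.2 and 217 FPKM in WT, and at 234 FPKM in MUT, against 222 FPKM in HET (KO minus WT log2 difference 0.20, SE 0.15, adjusted p = 0.265), and the pairs overlapped. The log2 difference of Gpx1 was 0.39 without KO 1, past the threshold with the spread of the WT pair alone (adjusted p = 0.0015), and 0.004 without KO 2. Gpx3, the secreted form, averaged 11.4 ± 0.649 FPKM in KO and 13.4 ± 1.11 FPKM in WT (SD, n = 2 each) and was not called (KO minus WT log2 difference -0.22, SE 0.11, adjusted p = 0.107).

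**Figure D2:**
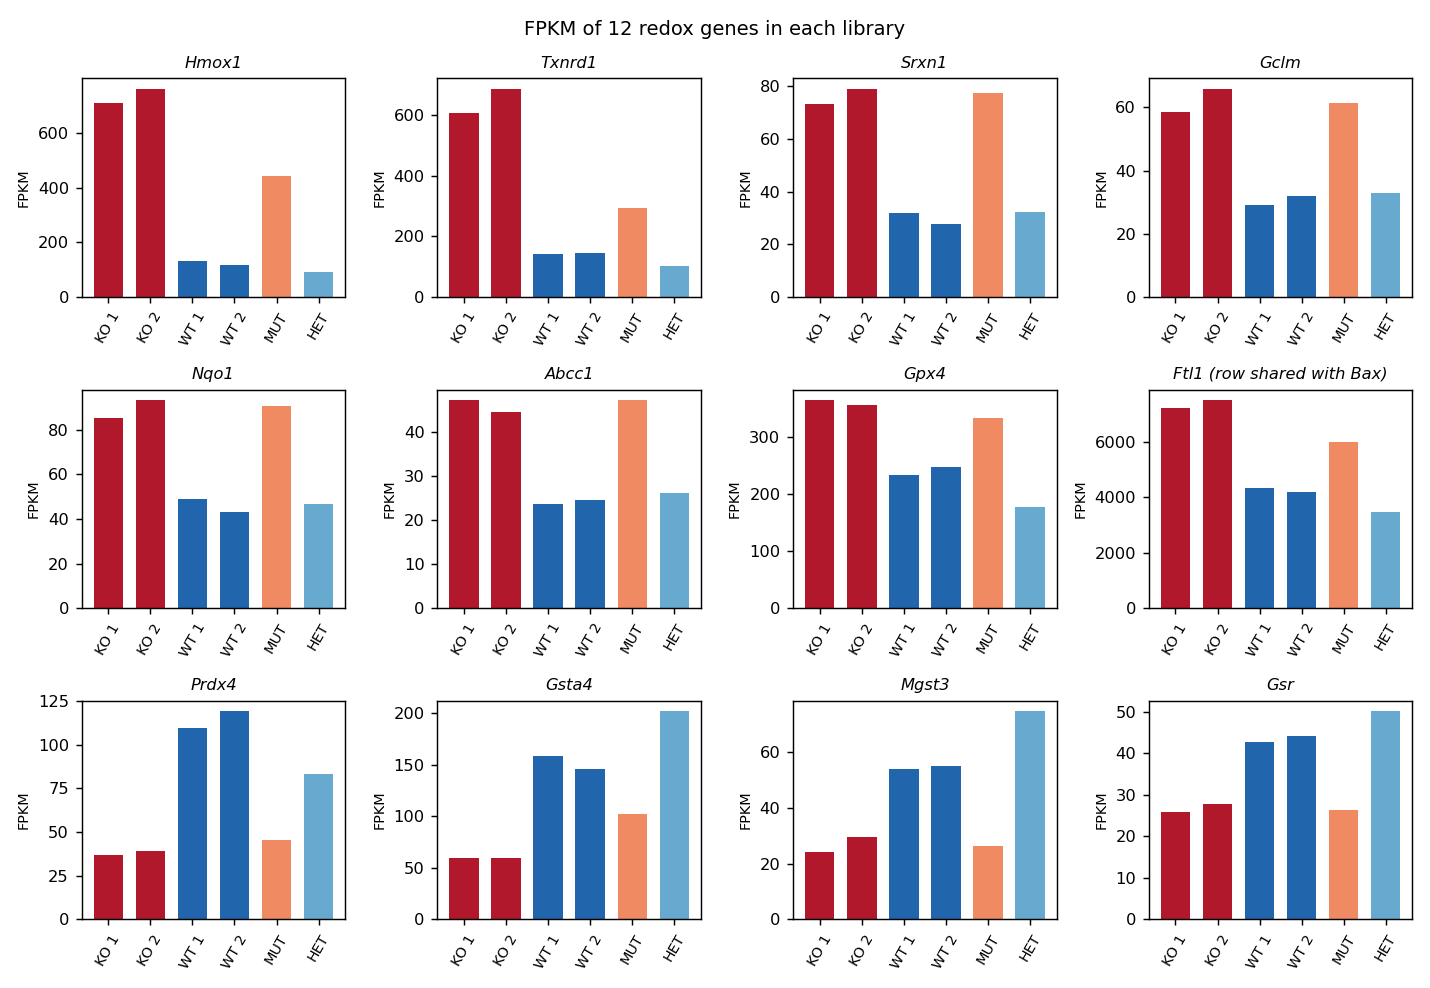
FPKM of 12 genes (y axis, linear, each panel with its own range), 1 bar per library, KO and WT with 2 bars each, MUT and HET with 1. Hmox1, Txnrd1 and Srxn1 are high in both KO libraries and in MUT, and Prdx4 is low in them.

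Among the 6 glutathione transferases, which join glutathione to electrophiles, 2 rose, 3 fell and 1 was not called. Gsta4, the alpha-class form that acts on lipid aldehydes (ENSMUSG00000032348.6, chr9:78182774-78209349), was at 59.7 and 59.9 FPKM in KO, against 159 and 146 FPKM in WT, and at 102 FPKM in MUT, against 202 FPKM in HET (KO minus WT log2 difference -1.33, SE 0.10, adjusted p = 1.2e-06). Mgst3, a microsomal form (ENSMUSG00000026688.5, chr1:167371966-167393841), was at 24.3 and 29.5 FPKM in KO, against 54.1 and 55.1 FPKM in WT, and at 26.5 FPKM in MUT, against 74.7 FPKM in HET (KO minus WT log2 difference -1.0, SE 0.11, adjusted p = 2.69e-05). Gstm1, a mu-class form, was at 33.4 and 29.0 FPKM in KO, against 51.1 and 53.4 FPKM in WT, and at 44.9 FPKM in MUT, against 61.0 FPKM in HET (KO minus WT log2 difference -0.73, SE 0.10, adjusted p = 0.000161). For these 3 genes no KO library reached a WT library. Gsto1, the omega-class form, was at 544 and 603 FPKM in KO, against 369 and 358 FPKM in WT, and at 498 FPKM in MUT, against 359 FPKM in HET (KO minus WT log2 difference 0.65, SE 0.10, adjusted p = 0.000293). Mgst1, the other microsomal form, was at 136 and 148 FPKM in KO, against 123 and 114 FPKM in WT, and at 129 FPKM in MUT, against 90.4 FPKM in HET. It had the smallest called difference of the members (KO minus WT log2 difference 0.25, SE 0.10, adjusted p = 0.0477). The Mgst1 call was lost under 10 alternatives, with adjusted p between 0.0504 and 0.256. Gstp1 shares its row with the near-identical Gstp2, so the 2 cannot be told apart; that row averaged 175 ± 30.4 FPKM in KO and 151 ± 29.0 FPKM in WT (SD, n = 2 each). It was not called (KO minus WT log2 difference 0.22, SE 0.15, adjusted p = 0.228), and its log2 difference was 0.40 without KO 2, past the threshold with the spread of the WT pair alone (adjusted p = 0.00181), and 0.04 without KO 1.

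In the thioredoxin and peroxiredoxin class 4 of 9 genes rose (44.4%, background 29.5%), 3 fell (33.3%, background 28.2%) and 2 were not called. Txnrd1, cytosolic thioredoxin reductase, a selenoprotein that uses NADPH to reduce thioredoxin (ENSMUSG00000020250.10, chr10:82833951-82897712), was at 607 and 686 FPKM in KO, against 143 and 146 FPKM in WT, and at 293 FPKM in MUT, against 104 FPKM in HET (KO minus WT log2 difference 2.16, SE 0.10, adjusted p = 6.74e-08). Srxn1, sulfiredoxin, which repairs over-oxidised peroxiredoxins (ENSMUSG00000032802.8, chr2:152105516-152111376), was at 73.2 and 78.9 FPKM in KO, against 31.9 and 27.7 FPKM in WT, and at 77.3 FPKM in MUT, against 32.3 FPKM in HET (KO minus WT log2 difference 1.33, SE 0.10, adjusted p = 2.35e-06). The KO mean was 4.49 times the WT mean for Txnrd1 and 2.55 times for Srxn1, and no libraries overlapped. By log2 difference among all tested genes, Txnrd1 was 53rd from the top and Srxn1 was 274th. Txn1, thioredoxin itself, averaged 295 ± 57.0 FPKM in KO and 289 ± 11.3 FPKM in WT (SD, n = 2 each) and was not called (KO minus WT log2 difference 0.02, SE 0.13, adjusted p = 0.925).

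The peroxiredoxins, thiol peroxidases that remove hydrogen peroxide, split by gene. Prdx6, which can use glutathione, was at 112 and 130.4 FPKM in KO, against 61.7 and 68.7 FPKM in WT, and at 102 FPKM in MUT, against 82.0 FPKM in HET (KO minus WT log2 difference 0.88, SE 0.11, adjusted p = 6.07e-05). Prdx5, a form found in mitochondria, peroxisomes and cytosol, was at 276 and 304 FPKM in KO, against 210.4 and 191 FPKM in WT, and at 257 FPKM in MUT, against 173 FPKM in HET (KO minus WT log2 difference 0.53, SE 0.10, adjusted p = 0.00134). KO libraries were above WT libraries for these 2. Prdx4, the peroxiredoxin of the endoplasmic reticulum (ENSMUSG00000025289.15, chrX:155323918-155340754), had the largest fall of the members, at 36.9 and 39.1 FPKM in KO, against 109.5 and 119 FPKM in WT, and at 45.4 FPKM in MUT, against 83.2 FPKM in HET (KO minus WT log2 difference -1.56, SE 0.10, adjusted p = 4.48e-07). Prdx2, a cytosolic form, was at 291 and 287 FPKM in KO, against 412 and 395 FPKM in WT, and at 296 FPKM in MUT, against 461 FPKM in HET (KO minus WT log2 difference -0.48, SE 0.10, adjusted p = 0.0015). Prdx1, the more abundant cytosolic form, was at 502 and 531 FPKM in KO, against 615 and 659.6 FPKM in WT, and at 515 FPKM in MUT, against 553 FPKM in HET (KO minus WT log2 difference -0.30, SE 0.10, adjusted p = 0.0235). KO libraries were below WT libraries for these 3. Prdx1 was no longer called when WT 1 (adjusted p = 0.0962) or WT 2 (adjusted p = 0.213) was left out, or when no filter on low values was used (adjusted p = 0.0623). Prdx3, the mitochondrial form, averaged 49.5 ± 1.98 FPKM in KO and 45.1 ± 1.12 FPKM in WT (SD, n = 2 each) and was not called (KO minus WT log2 difference 0.13, SE 0.09, adjusted p = 0.261).

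All 4 genes of iron and heme rose (background 29.5%). Hmox1, heme oxygenase, which opens heme and frees its iron (ENSMUSG00000005413.8, chr8:75093621-75100589), was at 710.0 and 760.4 FPKM in KO, against 131 and 116 FPKM in WT, and at 441 FPKM in MUT, against 92.7 FPKM in HET (KO minus WT log2 difference 2.57, SE 0.10, adjusted p = 2.7e-08). The KO mean was 5.96 times the WT mean, and Hmox1 was 20th from the top of all tested genes by log2 difference. Blvrb, a biliverdin reductase that acts further down the heme breakdown pathway, was at 45.5 and 46.2 FPKM in KO, against 32.2 and 29.7 FPKM in WT, and at 56.2 FPKM in MUT, against 34.3 FPKM in HET (KO minus WT log2 difference 0.56, SE 0.10, adjusted p = 0.000623). Fth1, the heavy chain of ferritin, the protein shell that stores iron, was at 2075 and 2239 FPKM in KO, against 1429.6 and 1477 FPKM in WT, and at 2525 FPKM in MUT, against 1389 FPKM in HET (KO minus WT log2 difference 0.57, SE 0.11, adjusted p = 0.000951). Ftl1, the ferritin light chain, shares its row with Bax, and that row was at 7212 and 7494 FPKM in KO, against 4344 and 4195 FPKM in WT, and at 5981 FPKM in MUT, against 3474 FPKM in HET (KO minus WT log2 difference 0.78, SE 0.11, adjusted p = 0.00015). KO libraries were above WT libraries for all 4, and the Ftl1 row had the highest mean level of the named rows in both KO and WT. Quantile normalization gives the top row of every such library the same value, and the log2 difference of Ftl1 was then 0.00 (adjusted p = 1). The summed level of the 4 rows was 10042 and 10539 FPKM in KO, 5936 and 5818 FPKM in WT, 9003 FPKM in MUT and 4990 FPKM in HET. Most of this sum came from the rows of Fth1 and Ftl1. Together they were at 9286 and 9733 FPKM in KO, 5773 and 5673 FPKM in WT, 8506 FPKM in MUT and 4863 FPKM in HET. Erythroid cells and macrophages handle much of the body's heme iron. In these libraries 8 erythroid markers summed to between 0.252 and 1.18 FPKM, and the adult globin rows were listed at 0. Of 8 macrophage markers 5 were tested, 0 rose and 2 fell (40.0%, background 28.2%). Those that fell were Laptm5 and the row that Cd68 shares with Eif4a1 and Senp3, which is not specific to macrophages. Lyz2 shares its row with Lyz1. Levels within the macrophage list differed widely. Ptprc, the pan-leukocyte gene, was at 0.0800 FPKM or less in every library, and Adgre1 and Csf1r were at 0.862 FPKM or less. Laptm5 was at 3.31 and 2.83 FPKM in KO, against 23.4 and 19.9 FPKM in WT. It was at 5.88 FPKM in MUT, against 36.7 FPKM in HET. The row of Lyz1 and Lyz2 was between 5.59 and 18.7 FPKM, Tyrobp between 0.918 and 4.17 FPKM and Cd14 between 0.907 and 1.98 FPKM.

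**Figure D3:**
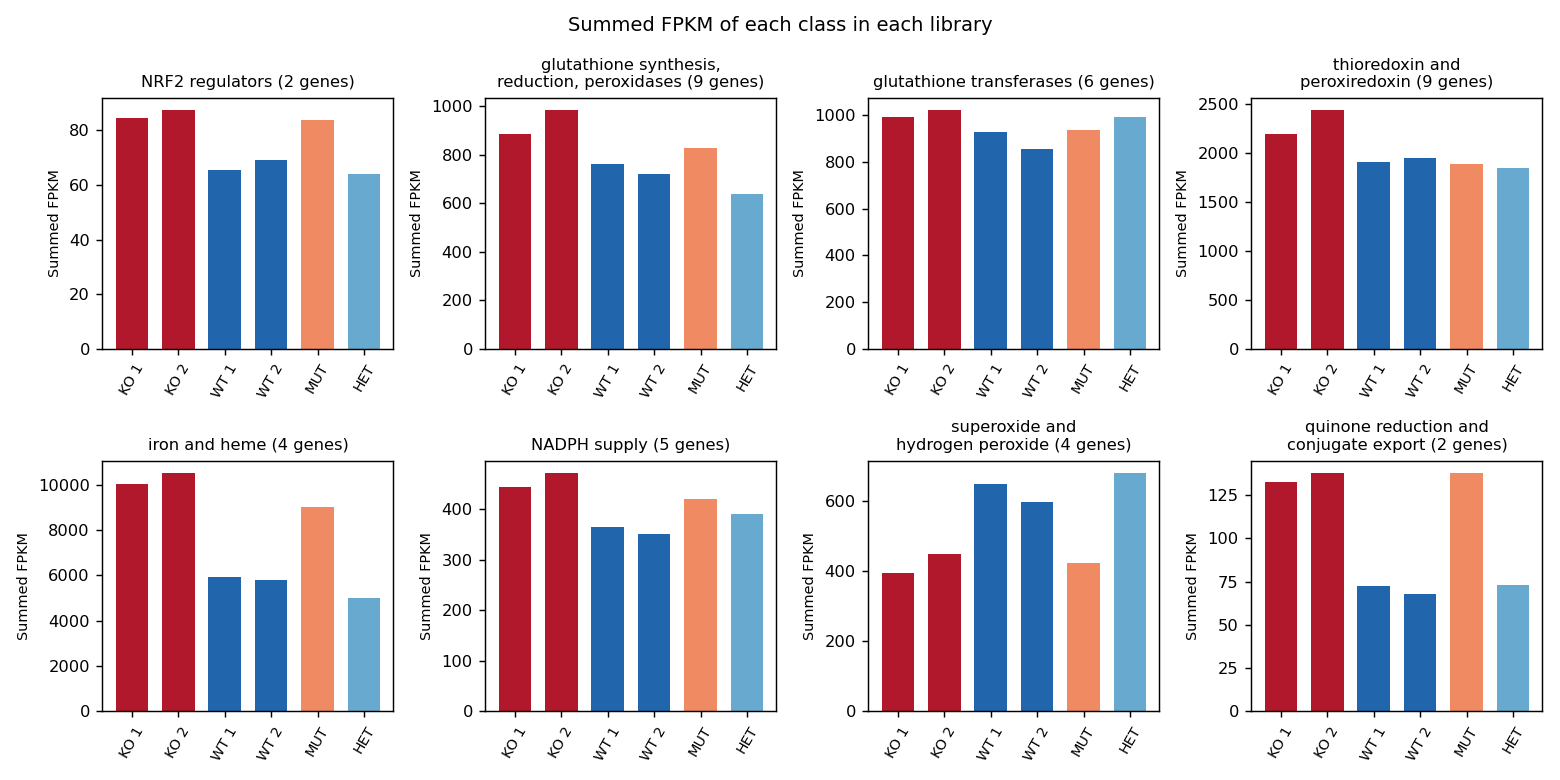
Summed FPKM of each of the 8 classes (y axis, linear, each panel with its own range), 1 bar per library, KO and WT with 2 bars each, MUT and HET with 1. Iron and heme is highest in KO and MUT, and the superoxide and hydrogen peroxide class is lowest in them.

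Of the 5 genes of NADPH supply 3 rose, 1 fell and 1 was not called. G6pdx, glucose-6-phosphate dehydrogenase, the first enzyme of the pentose phosphate pathway, was the one that fell, at 28.2 and 26.4 FPKM in KO, against 43.1 and 44.6 FPKM in WT, and at 34.6 FPKM in MUT, against 44.0 FPKM in HET (KO minus WT log2 difference -0.66, SE 0.10, adjusted p = 0.000183); its row overlaps that of Ikbkg. Pgd, which takes the next NADPH-yielding step, was at 140.0 and 155 FPKM in KO, against 119 and 108 FPKM in WT, and at 148 FPKM in MUT, against 127 FPKM in HET (KO minus WT log2 difference 0.37, SE 0.10, adjusted p = 0.00958), and that call was lost without WT 2 (adjusted p = 0.101). Taldo1, transaldolase, an enzyme of the non-oxidative branch, was at 163 and 174 FPKM in KO, against 111 and 104 FPKM in WT, and at 140.2 FPKM in MUT, against 129 FPKM in HET (KO minus WT log2 difference 0.65, SE 0.10, adjusted p = 0.000235). Me1, cytosolic malic enzyme, which makes NADPH outside that pathway, was at 55.8 and 60.2 FPKM in KO, against 38.3 and 43.7 FPKM in WT, and at 37.8 FPKM in MUT, against 27.5 FPKM in HET (KO minus WT log2 difference 0.49, SE 0.10, adjusted p = 0.00221). The dehydrogenase at the entry was thus lower in KO while Pgd, Taldo1 and Me1 were higher, and in none of the 4 did the libraries overlap. Tkt, transketolase, averaged 57.1 ± 0.107 FPKM in KO and 52.3 ± 2.08 FPKM in WT (SD, n = 2 each) and was not called (KO minus WT log2 difference 0.13, SE 0.09, adjusted p = 0.277).

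All 3 superoxide dismutases, which turn superoxide into hydrogen peroxide, fell (background 28.2%). Sod1, the cytosolic enzyme, was at 319 and 372 FPKM in KO, against 552 and 498 FPKM in WT, and at 339 FPKM in MUT, against 594 FPKM in HET (KO minus WT log2 difference -0.61, SE 0.11, adjusted p = 0.000959); its row overlaps that of Scaf4. Sod2, the mitochondrial enzyme, was at 19.7 and 21.5 FPKM in KO, against 32.6 and 32.8 FPKM in WT, and at 19.0 FPKM in MUT, against 33.2 FPKM in HET (KO minus WT log2 difference -0.64, SE 0.10, adjusted p = 0.000257). Sod3, the extracellular enzyme (ENSMUSG00000072941.5, chr5:52363791-52371418), was at 14.2 and 11.8 FPKM in KO, against 19.9 and 19.5 FPKM in WT, and at 17.2 FPKM in MUT, against 11.3 FPKM in HET (KO minus WT log2 difference -0.57, SE 0.11, adjusted p = 0.00131). No KO library reached a WT library for any of the 3. Cat, catalase, which breaks hydrogen peroxide down, averaged 42.6 ± 1.25 FPKM in KO and 44.4 ± 1.95 FPKM in WT (SD, n = 2 each) and was not called (KO minus WT log2 difference -0.06, SE 0.10, adjusted p = 0.607). The summed level of the 4 genes was 394 and 449 FPKM in KO, 647 and 596 FPKM in WT, 423 FPKM in MUT and 680 FPKM in HET.

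Both genes of quinone reduction and conjugate export rose (background 29.5%). Nqo1, the quinone reductase used as a standard readout of NRF2 activity (ENSMUSG00000003849.8, chr8:107388225-107403206), was at 85.4 and 93.3 FPKM in KO, against 48.8 and 43.1 FPKM in WT, and at 90.6 FPKM in MUT, against 46.8 FPKM in HET (KO minus WT log2 difference 0.95, SE 0.10, adjusted p = 2.57e-05). Abcc1, a pump that exports glutathione conjugates (ENSMUSG00000023088.17, chr16:14361558-14475737), was at 47.2 and 44.7 FPKM in KO, against 23.6 and 24.7 FPKM in WT, and at 47.3 FPKM in MUT, against 26.3 FPKM in HET (KO minus WT log2 difference 0.90, SE 0.10, adjusted p = 2.03e-05). KO libraries were above WT libraries for both, and the KO mean was 1.94 times the WT mean for Nqo1 and 1.90 times for Abcc1. The row of Nqo1 spans 303070 bases and overlaps 5 other rows, Nob1 and Nfat5 among them, and the effect of this on its level was not tested.

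MUT, in which the remaining allele carries E861A, is set against HET for loss of editing with a protein still encoded. With 1 library each there is no test and no replicate check. Of the 41 genes 24 were higher and 17 lower in MUT, and 35 had the sign they had in KO against WT. Neither count was taken over all tested genes, so neither has a background to be read against. After adding 1 FPKM, 4 genes were 2-fold or more apart, against a background of 13.7% of tested genes; between WT 2 and WT 1, and between KO 2 and KO 1, no member differed as much (background 0.0978% and 0.13%). Of the 4, 3 were higher (background 4.93%). Hmox1 was at 441 FPKM in MUT, against 92.7 FPKM in HET, a log2 difference of 2.24. Txnrd1 was at 293 FPKM in MUT, against 104 FPKM in HET (1.49). Srxn1 was at 77.3 FPKM in MUT, against 32.3 FPKM in HET (1.23). The 1 lower (background 8.77%) was Mgst3, at 26.5 FPKM in MUT, against 74.7 FPKM in HET (-1.46). These 4 were also at least 2-fold apart between KO and WT, in the same directions. The median log2 difference of MUT minus HET was 0.82 for iron and heme, 0.88 for quinone reduction and export and 0.26 for the glutathione class. It was 0.26 for the NRF2 regulators, 0.12 for NADPH supply, -0.28 for superoxide and hydrogen peroxide and -0.50 for the transferases. For thioredoxin and peroxiredoxin the sign differed, at -0.10 in MUT minus HET, against 0.13 in KO minus WT. Over the 41 genes the median of MUT minus HET was 0.23, and over all tested genes it was 0.01.

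The other genes 2-fold apart in KO were less far apart here: the log2 difference of MUT minus HET was 0.87 for Gclm, -0.98 for Gsta4 and -0.86 for Prdx4. The ferritin rows were higher in MUT, by 0.86 for Fth1 and 0.78 for the row of Ftl1 and Bax, and so were Nqo1 (0.94), Abcc1 (0.82) and Gpx4 (0.90). Sod1 (-0.81), Sod2 (-0.77) and Gsr (-0.90) were lower in MUT. For each gene in these sentences the sign was that of KO against WT. The 6 genes with the opposite sign were Sod3 (0.57), Gstp1 (-0.56), Cat (0.20), Txn1 (-0.29), Prdx3 (-0.11) and Tkt (-0.11); of these Sod3 alone was called in KO against WT.

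Whether the 4OHT effect differed between the allele backgrounds was tested as the MUT minus HET difference less the KO minus WT difference, over all 6 libraries, with the spread taken from the WT and KO pairs. Of the 41 genes 3 were called, against 4.01% of all tested genes, and MUT and HET were single libraries assumed to vary like the pairs. Sod3 was at 14.2 and 11.8 FPKM in KO, against 19.9 and 19.5 FPKM in WT, and at 17.2 FPKM in MUT, against 11.3 FPKM in HET. It was lower in KO and higher in MUT, and the difference between effects was 1.14 (SE 0.19, adjusted p = 0.0109). Prdx4 was at 45.4 FPKM in MUT, against 83.2 FPKM in HET, a smaller gap than in KO against WT, and the difference between effects was 0.70 (SE 0.17, adjusted p = 0.0472). Gpx3 was at 10.9 and 11.8 FPKM in KO, against 14.2 and 12.6 FPKM in WT, and at 7.78 FPKM in MUT, against 16.5 FPKM in HET, and its difference between effects was -0.78 (SE 0.18, adjusted p = 0.0456). Leaving out WT 1 ended the calls of Gpx3 (adjusted p = 0.0711) and Prdx4 (adjusted p = 0.0955), and so did leaving out WT 2 (adjusted p = 0.135 for Gpx3 and 0.151 for Prdx4). With no filter on low values none of the 3 was called (adjusted p = 0.17 for Sod3, 0.172 for Prdx4 and 0.192 for Gpx3). For Txnrd1 the difference was -0.67 (SE 0.18, adjusted p = 0.0664), which was not called; it passed the threshold without KO 1 (adjusted p = 0.00057) and without KO 2 (adjusted p = 0.0182), where the spread comes from the WT pair alone. For Hmox1 it was -0.33 (SE 0.18, adjusted p = 0.378).

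**Figure D4:**
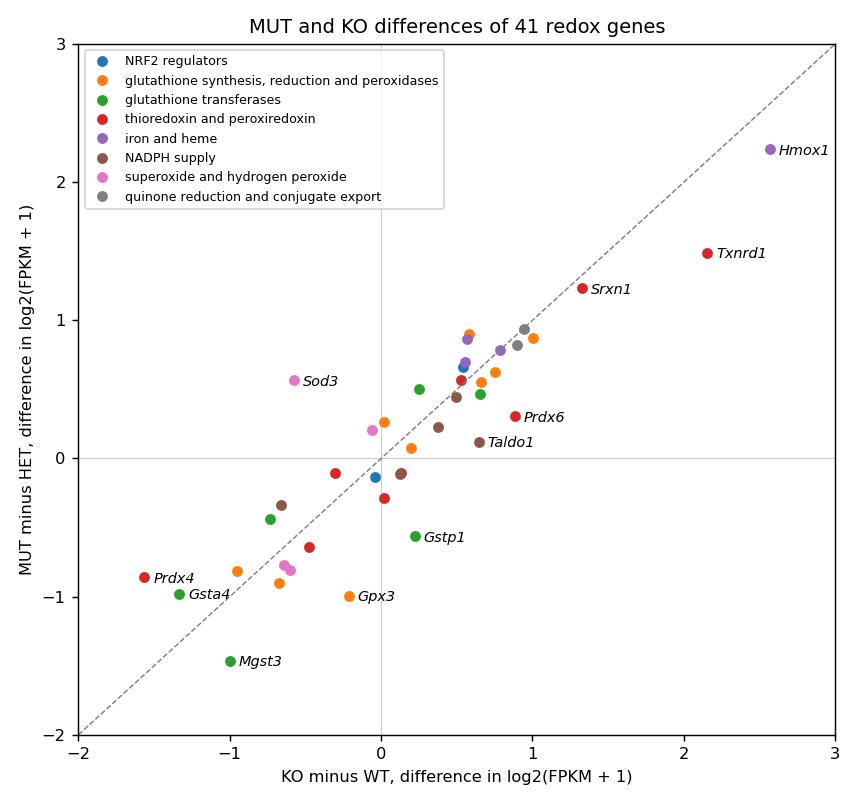
Log2 difference of MUT minus HET (y axis) against that of KO minus WT (x axis), both on the log2(FPKM + 1) scale, 1 point per gene coloured by class, with equal differences on the dashed line. Sod3 lies at 0.57 for MUT and -0.57 for KO, while the other genes that fell in KO are below 0 on both axes. Of the 41 points 35 have the same sign on both axes, a count that was not taken over all tested genes.

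Across both allele backgrounds, 4OHT against vehicle (3 libraries each, with the alleles as a term) called 31 of the 41 genes, against 57.4% of all tested genes, 20 of them higher (background 29.2%) and 11 lower (background 28.2%). This comparison shares its KO and WT libraries with the first one. The 3 libraries given 4OHT did not overlap the 3 given vehicle for 30 of the 41 genes, against 59.9% of all tested genes. The fitted log2 difference was 2.46 for Hmox1 (SE 0.10, adjusted p = 1.13e-06), 1.93 for Txnrd1 (SE 0.14, adjusted p = 1.17e-05) and 1.29 for Srxn1 (SE 0.09, adjusted p = 9.75e-06). Prdx4 had -1.33 (SE 0.14, adjusted p = 9.38e-05). Gpx3 was called lower here (log2 difference -0.47, SE 0.15, adjusted p = 0.0286) and not in KO against WT, and without MUT or without HET the call was lost (adjusted p = 0.107 and 0.109). Prdx1 (adjusted p = 0.0566) and Sod3 (adjusted p = 0.452) were not called over both pairs of alleles.

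Between the allele backgrounds, Fl/E861A (MUT and HET) against Fl/Fl (KO and WT) with treatment as a term, 5 of the 41 genes were called, against 10.1% of all tested genes. In Fl/E861A 4 were lower (background 5.11%), Txnrd1 (log2 difference -0.80, SE 0.15, adjusted p = 0.0139), Gss (-0.59, SE 0.10, adjusted p = 0.00899), Me1 (-0.58, SE 0.09, adjusted p = 0.00853) and Hmox1 (-0.57, SE 0.11, adjusted p = 0.0165). The 1 higher (background 5.01%) was Gsta4 (0.58, SE 0.11, adjusted p = 0.0131). The Hmox1 call was lost without KO 1 (adjusted p = 0.0562), without WT 1 (adjusted p = 0.0717) and without MUT (adjusted p = 0.0582), and the Gsta4 call without KO 1 (adjusted p = 0.0506). With no filter on low values neither Txnrd1 (adjusted p = 0.054) nor Hmox1 (adjusted p = 0.0512) was called. Me1 shows the pattern in its libraries, at 37.8 FPKM in MUT, against 27.5 FPKM in HET, beside 55.8 and 60.2 FPKM in KO, against 38.3 and 43.7 FPKM in WT: MUT lay below both WT libraries while being above HET. Strain, embryo and culture of the backgrounds are not given in the labels and cannot be told apart from the allele.

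A further list of genes of the same pathways was set beside the members, of which 106 were found and 99 tested. In KO against WT 37 rose, 23 fell and 39 were not called (60.6% called, background 57.7%), with a median log2 difference of 0.13. The share called was near the background. Of 10 partners and degradation factors of NRF2, 5 rose and none fell (background 29.5% higher and 28.2% lower). Mafk, a small MAF partner of NRF2, was at 43.0 and 46.8 FPKM in KO, against 15.5 and 14.5 FPKM in WT, and at 27.6 FPKM in MUT, against 11.5 FPKM in HET (KO minus WT log2 difference 1.52, SE 0.10, adjusted p = 6.34e-07). Sqstm1, the autophagy receptor p62 that sequesters KEAP1, was at 1123 and 1119.6 FPKM in KO, against 249 and 221 FPKM in WT, and at 664 FPKM in MUT, against 168 FPKM in HET (KO minus WT log2 difference 2.25, SE 0.10, adjusted p = 5.75e-08). KO libraries lay above WT libraries for both, and MUT lay above HET. Bach1, the repressor that competes for the same DNA element, was not called, at 9.94 and 10.9 FPKM in KO, against 10.6 and 10.6 FPKM in WT, and at 11.9 FPKM in MUT, against 8.65 FPKM in HET (KO minus WT log2 difference -0.02, SE 0.10, adjusted p = 0.877).

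Of 17 tested genes of cystine and glutathione handling, 7 rose (41.2%, background 29.5%) and 5 fell (29.4%, background 28.2%). Slc7a11, the transporter that brings in cystine for glutathione synthesis, was at 20.0 and 20.4 FPKM in KO, against 3.07 and 3.29 FPKM in WT, and at 12.04 FPKM in MUT, against 1.501 FPKM in HET (KO minus WT log2 difference 2.34, SE 0.10, adjusted p = 4.48e-08). The largest rise of the list was that of Chac1, whose product breaks glutathione down, at 146 and 140.2 FPKM in KO, against 7.28 and 7.85 FPKM in WT, and at 73.7 FPKM in MUT, against 8.54 FPKM in HET (KO minus WT log2 difference 4.07, SE 0.10, adjusted p = 2.61e-09). Esd, which hydrolyses S-formylglutathione, was at 484 and 620.0 FPKM in KO, against 171 and 183 FPKM in WT, and at 390.1 FPKM in MUT, against 168 FPKM in HET (KO minus WT log2 difference 1.63, SE 0.12, adjusted p = 1.95e-06). All 3 were also higher in MUT than in HET. For Chac1 that gap was smaller than in KO against WT, with a difference between effects of -1.10. Genes of supply and of breakdown moved both ways: named after their values were seen, Cbs, which makes a precursor of cysteine (-1.41, adjusted p = 1.91e-05), and Ggct (-0.76, adjusted p = 0.000186) and Ggt5 (-1.23, adjusted p = 4.22e-05), which act in glutathione breakdown, fell in KO against WT. Levels of Cbs and Ggt5 were low. Cbs averaged 0.519 FPKM in KO and 3.06 FPKM in WT, and Ggt5 averaged 0.0745 FPKM in KO and 1.54 FPKM in WT.

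Of the named genes that fell, Gstt1, a theta-class transferase, was at 2.79 and 2.41 FPKM in KO, against 12.8 and 12.6 FPKM in WT, and at 5.94 FPKM in MUT, against 11.1 FPKM in HET (KO minus WT log2 difference -1.93, SE 0.11, adjusted p = 2.36e-07). Gstm2, another mu-class form, was at 12.9 and 13.2 FPKM in KO, against 23.5 and 26.6 FPKM in WT, and at 19.6 FPKM in MUT, against 25.5 FPKM in HET (KO minus WT log2 difference -0.89, SE 0.10, adjusted p = 3.76e-05). Mthfd1, a folate enzyme that can yield NADPH, was at 22.2 and 21.0 FPKM in KO, against 55.8 and 54.8 FPKM in WT, and at 22.7 FPKM in MUT, against 64.8 FPKM in HET (KO minus WT log2 difference -1.32, SE 0.10, adjusted p = 1.24e-06). For both transferases and for Mthfd1 no KO library reached a WT library. The gap of Gstt1 was smaller in MUT against HET, with a difference between effects of 1.13. Idh1, the cytosolic isocitrate dehydrogenase that makes NADPH, was at 32.0 and 34.0 FPKM in KO, against 63.6 and 72.7 FPKM in WT, and at 46.4 FPKM in MUT, against 65.3 FPKM in HET (KO minus WT log2 difference -1.02, SE 0.10, adjusted p = 1.44e-05). Tfrc, the transferrin receptor that takes up iron, was at 12.5 and 15.8 FPKM in KO, against 26.5 and 34.9 FPKM in WT, and at 15.7 FPKM in MUT, against 43.3 FPKM in HET (KO minus WT log2 difference -1.06, SE 0.15, adjusted p = 0.00013). The iron uptake receptor was thus lower and the ferritin rows higher in KO, and also in MUT against HET. Slc40a1, ferroportin, the iron exporter, was not called, at 4.60 and 6.98 FPKM in KO, against 5.89 and 5.59 FPKM in WT, and at 7.14 FPKM in MUT, against 5.27 FPKM in HET (KO minus WT log2 difference -0.01, SE 0.16, adjusted p = 0.955). Txnip, which binds and inhibits thioredoxin, was not called in KO against WT either, at 64.2 and 68.6 FPKM in KO, against 57.8 and 59.4 FPKM in WT, and at 92.5 FPKM in MUT, against 71.1 FPKM in HET (KO minus WT log2 difference 0.18, SE 0.09, adjusted p = 0.131). The limma fits over all 6 libraries called Txnip higher in 4OHT against vehicle (0.24, SE 0.09, adjusted p = 0.0397). They also called it higher in Fl/E861A against Fl/Fl (0.37, SE 0.09, adjusted p = 0.0381).

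**Figure D5:**
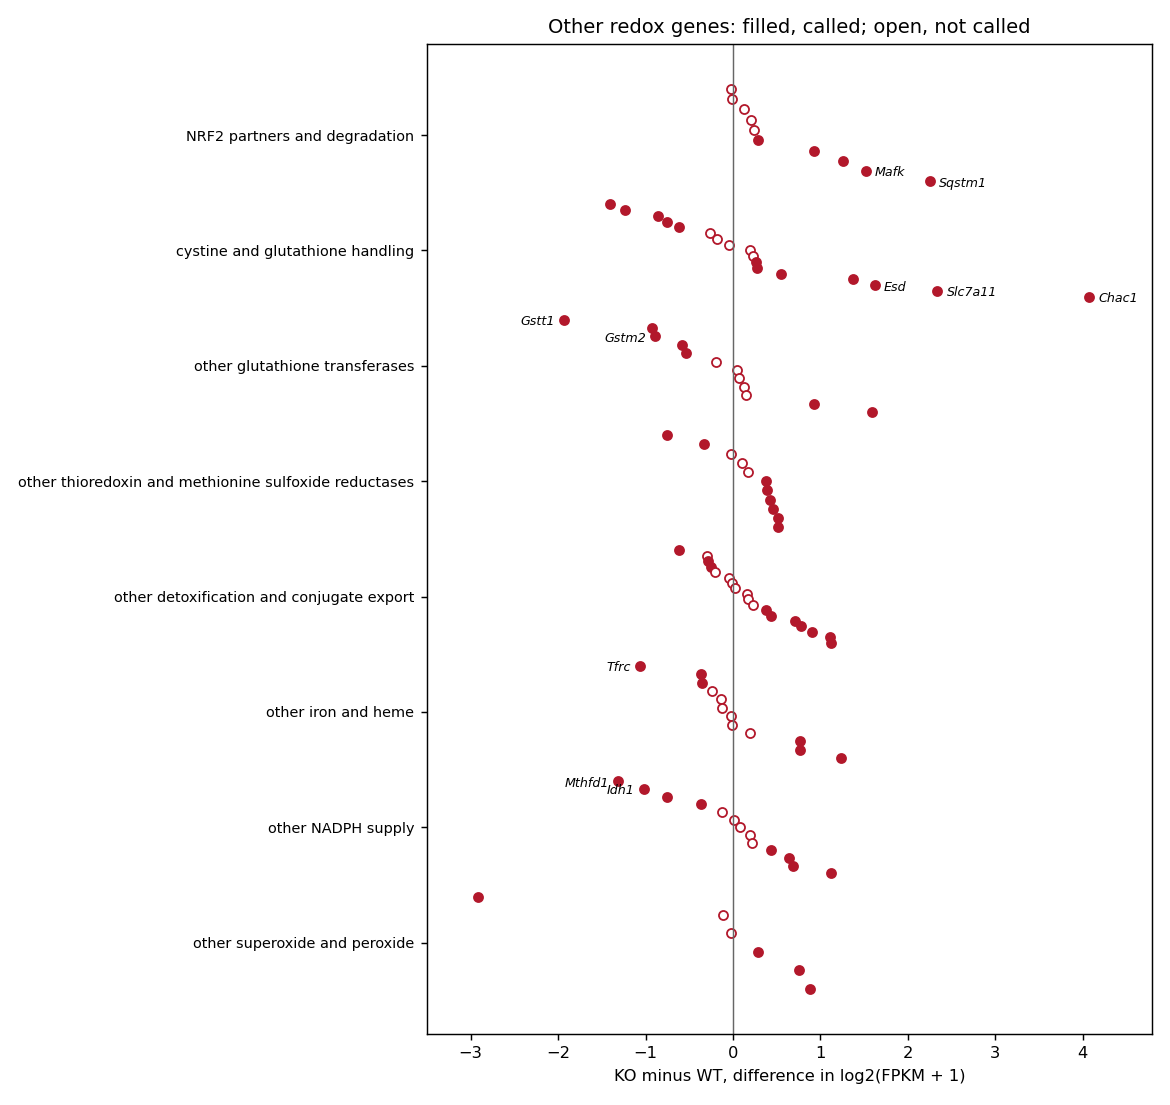
Log2 difference of KO minus WT (x axis, log2(FPKM + 1) scale) for the 99 tested genes of the further redox list, by class, with called genes filled and others open. Labels mark the 5 largest called rises and falls among genes averaging 5 FPKM or more over the 4 KO and WT libraries; the leftmost point, named after its value was seen, is Gpx2 at -2.92, which averaged less over these 4. The 5 labelled rises run from Mafk at 1.52 to Chac1 at 4.07, and the 5 labelled falls from Gstm2 at -0.89 to Gstt1 at -1.93.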

How the data were processed

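Per the file headers, the deposited table of each of the 6 libraries holds FPKM values for 24879 gene rows, written with decimal commas. TopHat2 2.1.1, Bowtie2 2.3.0, Cufflinks 2.2.1, GRCm38 and mm10 are named in the submitters' processing notes. Which annotation, strand setting or further scaling was used is not given in the sources used here. Deposited FPKM values are not read counts, so no count test was applied, and depth was only estimated, from the smallest steps of 3616 genes with 1 transcript.

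Left out were 1021 rows that name no gene. A pseudocount of 1 was added and log2 values were fitted in limma 3.58.1 (R 4.3.3; lmFit, then eBayes with a mean-variance trend). Tests were two-sided, p-values were adjusted by Benjamini-Hochberg over all genes, and a gene was called under 0.05. The pseudocount makes differences of low genes look smaller. Testing required 1 FPKM or more in at least 2 libraries. KO against WT used 4 libraries and the other fits used 6. The limma script was tested on simulated data. Alternatives were other pseudocounts, filters and scalings, summed rows, no trend, a replicate block and leaving out each library. Gene coordinates are from GENCODE M21 and promoters from RefSeq. Every member is named. From the further list the text names 6 set genes and, among those averaging 5 FPKM or more over the 4 KO and WT libraries, the 5 largest called rises and the 5 largest called falls. Outside this rule, Cbs, Ggct, Ggt5 and Gpx2 were named after their values were seen. The members and lists were chosen with earlier results of these data known.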

Additional observations from a re-analysis of the deposited data

Results flagged for a closer look

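Sod3, the extracellular superoxide dismutase, had a MUT effect minus KO effect of 1.14 on the log2 scale, with a higher level in MUT against HET and a lower level in KO against WT. Gpx3, the secreted glutathione peroxidase, had a difference between effects of -0.78, with a larger gap in MUT against HET than in KO against WT. Prdx4, the peroxiredoxin of the endoplasmic reticulum, had a difference between effects of 0.70, with a smaller gap in MUT against HET. Each was brought out by limma's test of the difference itself, in which MUT and HET are 1 library each.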

How the results depend on the processing

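FPKM keep no read totals, so counting error cannot be given, and 2 libraries a group (1 for MUT and HET) limit every value. In KO against WT the 41 genes gave 29 to 33 calls when each library was left out and 30 to 33 under the other settings, against 32; 4OHT against vehicle gave 28 to 32, against 31. Calls in the difference between effects were fewer or more than the 3 reported: 1 with a pseudocount of 0.1, 1 without trend, 0 without a filter (9 at an unadjusted p under 0.05), 5 with quantile normalization, and 1 to 9 when a WT or KO library was left out (9 without KO 1 and 5 without KO 2, with the spread of the WT pair alone, 1 without WT 1 and 1 without WT 2). Without HET or MUT it could not be fitted. Fl/E861A against Fl/Fl gave 3 calls without a filter and 3 to 7 when each library was left out, against 5, the 3 being without KO 1. In MUT against HET, 21 genes were at least 1.5-fold apart, against 4 at 2-fold. The difference between effects of Ftl1 turned to 0.57 with quantile normalization (adjusted p = 0.029), against 0.00. Under that setting the KO minus WT difference of Ftl1 was itself 0.00, as described above for the top row. The further list had 46 calls (without WT 2) to 66, against 60. The KO against WT median of the glutathione class was 0.004 without KO 2 and 0.394 without KO 1, against 0.20. The causes were not tested. The replicate numbers of KO and WT are not stated to mark shared cultures; deviations of same-numbered libraries correlated at 0.183, and the replicate block gave 33 calls among the members, with Gstp1 added (adjusted p = 0.034).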

Other observations

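Among the further redox genes, a class held Txn2, Txnip, the sestrin genes, and other thioredoxin and methionine sulfoxide reductases. Of its 11 genes tested in KO against WT, 6 rose (54.5%, against 29.5% of all tested genes). The 2 that fell (18.2%, against 28.2%) were the sestrin genes Sesn1 and Sesn3. The other 3 were not called, and the median log2 difference of the class was 0.38. Of 13 other genes of NADPH supply 4 rose and 4 fell (30.8% each), with a median of 0.08, and of 12 other iron and heme genes 3 rose and 3 fell (25.0% each), with a median of -0.07; these shares are near those of all tested genes. Of 12 other glutathione transferases 2 rose (16.7%) and 5 fell (41.7%).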
